A study of Mus musculus with 5 samples.

Results

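H3K27me3 was examined at 8 myogenic and mesodermal basic helix-loop-helix (bHLH) genes of mouse dermal fibroblasts, Myod1, Myf5, Myf6, Myog, Msc, Tcf15, Tcf21 and Scx. They were chosen by name as bHLH genes of skeletal muscle, somite, mesenchyme and tendon, with earlier results of these data known. They are 8 of 21951 protein-coding genes and of 55450 genes in all in the annotation. For each gene, peaks were collected within 3000 bp of any annotated start site, called here the start window, and within the gene body. In the peak lists, 4 of the 8 genes (Myod1, Msc, Tcf15 and Tcf21) had a peak at the start window in every library, as did 12.0% of protein-coding genes. Myf5 had peaks in both E14 libraries and neither E17 library, as did 4.62%, Myf6 had a peak in a single E14 library, and Myog and Scx had none in any library, as did 74.1%.

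bHLH factors of this kind bind DNA as dimers, usually with an E protein, at a short site called an E-box. Myod1 and Myf5 commit cells of the somite to the skeletal muscle fate, Myf6 acts in commitment and in the mature fiber, and Myog drives myoblasts to differentiate and fuse. Dermal fibroblasts of the dorsal trunk also descend from somites and do not form skeletal muscle. H3K27me3, the trimethylation of lysine 27 on histone H3, is laid down by Polycomb repressive complex 2 and is a mark of silenced chromatin, often found over developmental regulators in lineages that do not use them.

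The libraries were 2 of dermal fibroblasts from wild-type (WT) mouse skin labelled E14 and 2 labelled E17. The methods give these stages as E14.5 and E18.5, with 2 dermal preparations per stage that were expanded in culture, so the values are of cultured bulk cells and not of cells taken straight from the skin. The labels name DMEM with serum, sonication and an Ion Torrent library kit, whereas the methods name AmnioMAX medium, an enzymatic kit and Illumina sequencing. An input library labelled for both stages was not analysed here. A shorter or absent peak can come from fewer cells that carry the mark or from less of it per cell, and these cannot be told apart in bulk chromatin.

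The E14 lists held 21546 and 16574 peaks and covered 52.8 and 32.1 Mb, and the E17 lists held 10429 and 7107 peaks over 20.0 and 14.3 Mb. The lists give no read counts, so depth is unknown, and the E17 lists were shorter as a whole, which stands beside every comparison of covered length given here. The part of list size in the differences at single genes was not tested. Each list was also read at the 7107 peaks with its highest −log10 q-values. A kept peak has its full width in that reading, so list size is not taken out of the covered lengths. Of 12 fibroblast marker genes such as Col1a1 and Pdgfra, 0 had a peak at the start window in these lists, but 74.1% of all protein-coding genes had none either. For marker genes of other skin cells, a peak stood in all 4 libraries at 4 of 8 epidermal, 1 of 4 endothelial, 1 of 3 melanocyte or Schwann cell and 0 of 3 immune markers. Over all protein-coding genes the share with a peak in all 4 libraries was 12.0%. Peak lists give no expression, so the labelled cell type cannot be checked further.

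The stretches that lie directly before the start site are shown for the 3 of the 8 genes that matched the RefSeq promoters. These stretches differ in how many libraries had them under a peak. They are the 250 bases before the RefSeq start on GRCm38.p6, 5′ to 3′, with CpG dinucleotides in capitals. The Myog sequence is chr1:134289754-134290003 on the plus strand, the Tcf21 sequence is chr10:22820144-22820393 on the minus strand, and the Myf5 sequence is chr10:107486135-107486384 on the minus strand.
Myog: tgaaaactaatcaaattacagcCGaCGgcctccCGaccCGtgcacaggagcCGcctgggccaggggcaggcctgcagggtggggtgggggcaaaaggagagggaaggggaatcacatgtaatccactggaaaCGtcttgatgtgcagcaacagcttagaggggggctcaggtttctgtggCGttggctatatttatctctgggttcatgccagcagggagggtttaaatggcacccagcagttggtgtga
Tcf21: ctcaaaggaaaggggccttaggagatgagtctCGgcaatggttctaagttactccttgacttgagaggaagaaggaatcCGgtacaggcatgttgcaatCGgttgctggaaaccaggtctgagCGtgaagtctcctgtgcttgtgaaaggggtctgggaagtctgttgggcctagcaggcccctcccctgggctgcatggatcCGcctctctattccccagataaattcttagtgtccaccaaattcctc
Myf5: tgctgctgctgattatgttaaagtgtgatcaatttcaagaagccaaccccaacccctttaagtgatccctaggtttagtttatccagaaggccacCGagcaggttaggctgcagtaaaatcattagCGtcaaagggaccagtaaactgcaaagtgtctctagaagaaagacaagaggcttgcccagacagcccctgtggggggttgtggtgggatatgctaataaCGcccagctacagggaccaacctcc
In Myog, the gene for myogenin, 0 of the 250 bases were under a peak in any library. In Tcf21, all 250 bases were under a peak in each of the 4 libraries. In Myf5, all 250 bases were covered in E14 replicate 1 and 0 in the other 3 libraries. The sequences hold 7, 5 and 3 CpG dinucleotides, in this order, and the median over 32851 RefSeq promoter stretches of the same length is 6. The E-box CANNTG, which reads the same on both strands, occurs in 66.2% of those stretches. It was found in Myog, as CACATG at −138 and CAGTTG at −12, counted from the RefSeq start, and its letters are not in the Tcf21 and Myf5 windows.

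Myod1, the master regulator of the myogenic fate, was marked in all 4 libraries. The gene lies on chromosome 7 at bases 46376474 to 46379099, plus strand, in GRCm38. Of the 6001 bp of its start window, 5619 and 4460 bp were covered in E14 replicates 1 and 2, and 3621 and 3122 bp in E17 replicates 1 and 2. Both E17 values lay below both E14 values. The mean was 5040 ± 820 bp at E14 and 3372 ± 353 bp at E17 (SD, n = 2 each), a decrease of 33.1%, with an exact two-sided permutation p of 0.333. With 2 libraries against 2 the 3 possible splits allow no smaller p, here or for any other gene. The p gives only the place of the stage difference among these splits and does not measure the spread between libraries.

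The Myod1 peaks were nested. They ran from −2618 to 3697 bp and from −1459 to 3636 bp relative to the start site in E14 replicates 1 and 2, and from −620 to 3483 bp and from −121 to 3047 bp in E17 replicates 1 and 2. The differences therefore lay mostly on the upstream side, while the whole gene body of 2626 bp, with 1861 exonic and 765 intronic bases, stayed under a peak in every library. Ranked by fold enrichment within its own list, the Myod1 peak stood at percentile 87.2 and 80.6 at E14 and at 83.5 and 56.9 at E17. The rank of E17 replicate 1 fell between those of the E14 libraries, so the ranks of the stages overlapped. The fold enrichment itself was 4.25, 4.32, 4.06 and 3.83 in the same order.

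**Figure D1:**
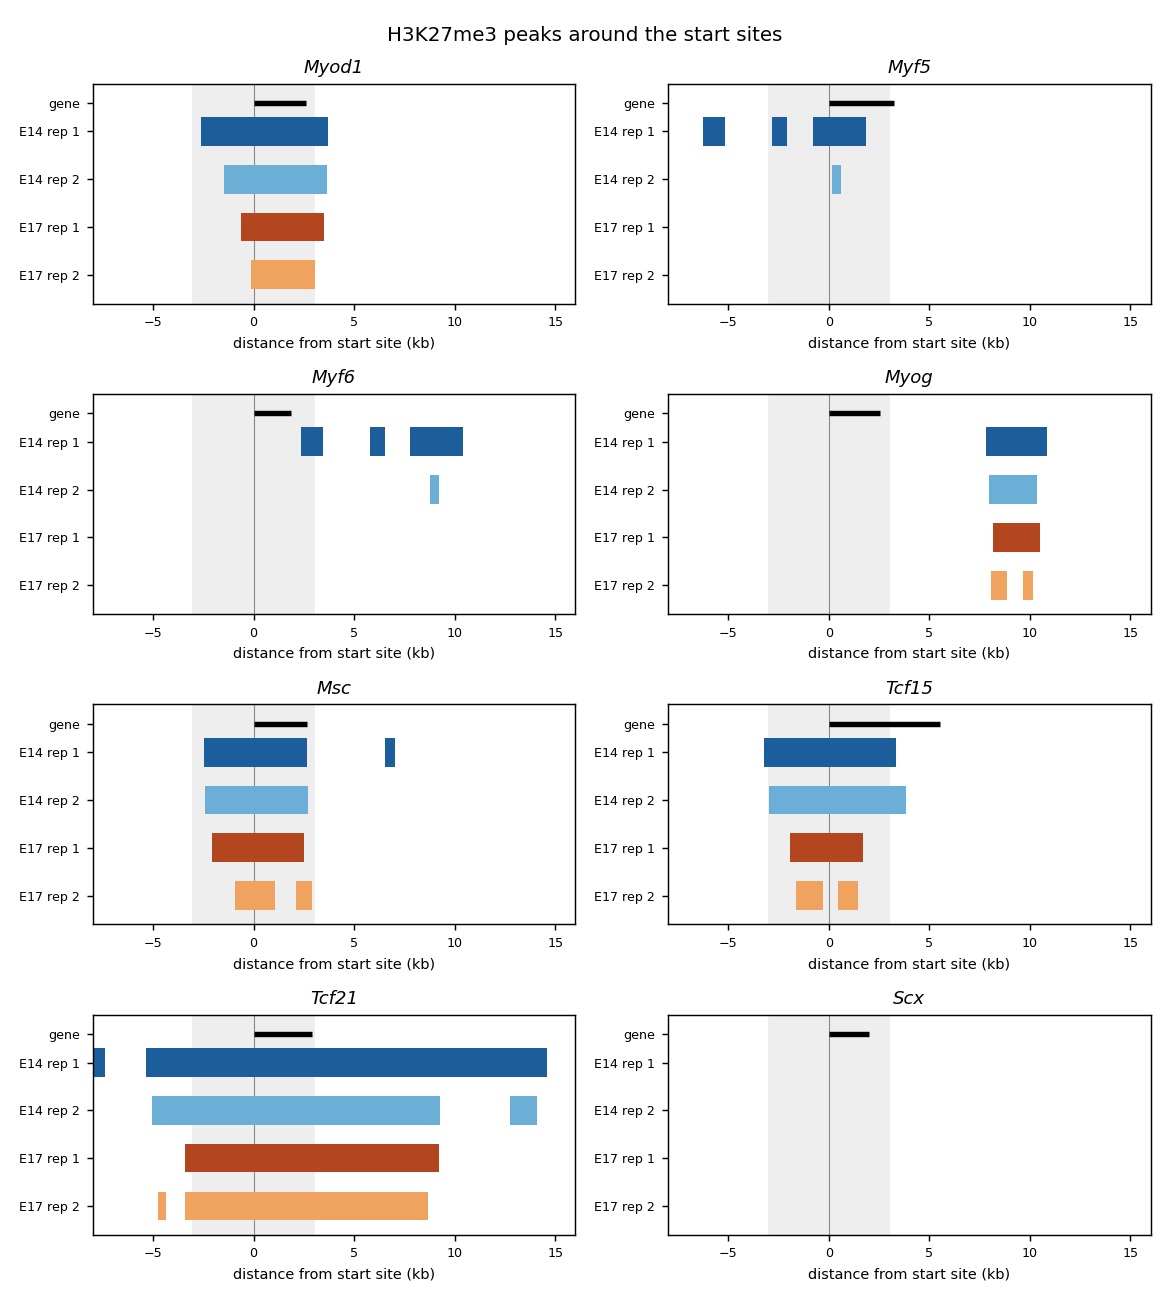
H3K27me3 peaks around the 8 genes, with the distance from the 5′ start site in kb on the horizontal axis and 1 row per library (blue, E14; orange, E17). The black bar is the gene body and the gray band the 3000 bp on either side of the start site; Myod1, Msc, Tcf15 and Tcf21 are covered in all 4 rows and Myog and Scx in none.

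Myf5 and Myf6 lie in tandem on the minus strand of chromosome 10, 6718 bp apart. Myf5, which acts first in the embryo among the myogenic factors, spans bases 107482908 to 107486134, and Myf6, also called Mrf4, spans bases 107492853 to 107494737. At Myf5, 3359 and 463 bp were covered in E14 replicates 1 and 2 and 0 bp in both E17 libraries, of 6227 bp of start window and gene body. The stages did not overlap (exact two-sided permutation p = 0.333), but the E14 libraries differed from each other by more than the smaller of them held. In E14 replicate 1 the coverage came from a peak of 2632 bp from −804 to 1827 bp, with 780 exonic and 1048 intronic bases, and a peak of 727 bp from −2809 to −2083 bp. In E14 replicate 2 it came from a peak of 463 bp at 153 to 615 bp, all within exonic sequence.

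These were weak peaks. The strongest stood at percentile 36.4 in E14 replicate 1 and 7.07 in E14 replicate 2, with −log10 q-values of 2.95 and 2.41 against a list threshold of 2. In the lists read at 7107 peaks each, Myf5 had 0 bp covered at either stage. The E14-only state is common among such peaks. Of the 499 protein-coding genes with a peak in both E14 libraries and a mean E14 percentile below 50, 394 (79.0%) had no peak at E17, whereas of all 4270 genes with a peak in both E14 libraries the share was 23.8%. The nearest E17 peak to the Myf5 start was 212489 bp away in replicate 1 and 213106 bp away in replicate 2, near the start of Lin7a.

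Myf6 had 651 bp covered in E14 replicate 1 and 0 bp in the other 3 libraries, of 6001 bp. The peak, 1104 bp wide, lay at 2350 to 3453 bp, past the 3′ end of Myf6 in the gap between the genes, and touched 0 bp of the gene body. Its percentile was 77.7 and its −log10 q-value 4.72, above both Myf5 peaks of that library. The same peak lies at −6253 to −5150 bp relative to the Myf5 start site, so it could not be assigned to one gene of the pair. With Myf5 and Myf6 counted as 1 locus, the number of loci with peaks at E14 only remained 1.

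Myog, which acts downstream of Myod1 and Myf5, was without a peak at its start window and gene body in all 4 libraries. The gene is on chromosome 1 at bases 134289989 to 134292548, plus strand. The nearest peak began 7795 and 7960 bp from the start site in E14 replicates 1 and 2 and at 8155 and 8051 bp in E17 replicates 1 and 2, always on the 3′ side. It lay within Ppfia4, a neighbor on the opposite strand, across its exons and introns. In E14 replicate 1 it was 3063 bp wide and in E14 replicate 2 it was 2399 bp wide. It was 2332 bp wide in E17 replicate 1, and it was split into peaks of 830 and 498 bp in E17 replicate 2. The start site of Ppfia4 had no peak either. A gene without a peak can still carry H3K27me3 below the threshold of the list, which cannot be read from these files.

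Msc encodes musculin, also called MyoR, a bHLH repressor that can block the activity of Myod1. It lies on the minus strand of chromosome 1 at bases 14753346 to 14755992, with 4 annotated start sites, and overlaps the antisense gene Gm9947, so its peaks belong to both genes. Coverage was 5119 and 5123 bp in E14 replicates 1 and 2 and 4557 and 2769 bp in E17 replicates 1 and 2, of 7328 bp. The E14 values were nearly equal, both E17 values were lower, and the E17 libraries differed from each other more than replicate 1 differed from E14. The decrease was 28.5%, from 5121 ± 2.83 to 3663 ± 1264 bp (SD, n = 2 each; exact two-sided permutation p = 0.333).

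In the first 3 libraries Msc lay under a single peak, which reached from −2477 to 2641 bp in E14 replicate 1. In E17 replicate 2 it was split into a peak of 1999 bp over the start site and a peak of 770 bp at the 3′ end. The percentile by fold enrichment was 96.2 and 92.7 at E14 and 85.9 and 74.5 at E17, so for Msc the ranks did not overlap either. Myod1 and its repressor thus carried the mark in the same libraries.

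Tcf15, or paraxis, is needed for the epithelial somite. It lies on the plus strand of chromosome 2 at bases 152143561 to 152149097. Its decrease in covered length was the steepest among the 4 genes marked throughout, where the window of Tcf21 was saturated. Of 8537 bp of start window and gene body, 6328 and 6812 bp were covered in E14 replicates 1 and 2, and 3667 and 2327 bp in E17 replicates 1 and 2. The mean was 6570 ± 342 bp at E14 and 2997 ± 948 bp at E17 (SD, n = 2 each), a decrease of 54.4% with no overlap between the stages (exact two-sided permutation p = 0.333).

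The rank of the strongest Tcf15 peak moved differently from the covered length. The percentile was 95.9 and 91.8 in E14 replicates 1 and 2 and 92.9 and 95.8 in E17 replicates 1 and 2, so by the strongest peak the stages overlapped. In E17 replicate 2 the mark was found as 2 peaks, from −1649 to −302 bp and from 449 to 1427 bp, and the start site itself was not covered. The 95.8 is that of the shorter peak, of 979 bp. The longer peak, of 1348 bp, stood at percentile 80.6, below both E14 values, so the overlap depends on the peak taken. The 1000 bp around this start site are the richest in CpG among the 8 genes, as described further on.

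Tcf21, also called capsulin or epicardin, is a factor of mesenchymal and fibroblast progenitors in heart, kidney and lung. It lies on the minus strand of chromosome 10 at bases 22817281 to 22820174, overlapped by the antisense gene Gm10824. All 6016 bp of its start window and gene body were covered in each of the 4 libraries. The peak was far wider than the window, at 19941 and 14343 bp in E14 replicates 1 and 2 and 12662 and 12068 bp in E17 replicates 1 and 2. By whole peak width the stages did not overlap, with 17142 ± 3958 bp at E14 and 12365 ± 420 bp at E17 (SD, n = 2 each; exact two-sided permutation p = 0.333), a decrease of 27.9%.

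Of the 8 genes, Tcf21 ranked highest in every library, with percentiles of 99.0 and 98.3 in E14 replicates 1 and 2 and 96.4 and 97.5 in E17 replicates 1 and 2. Its fold enrichment was 7.48 and 7.25 at E14 and 5.03 and 5.35 at E17. Fold enrichment depends on the background and depth of a library, so it is compared here only within each list. The start window was saturated, and a change within it could not have been seen in its covered length.

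Scx, or scleraxis, the factor of tendon progenitors, was without a peak in any library, also within 50000 bp on either side of its gene. It lies on the plus strand of chromosome 15 at bases 76457452 to 76459458, inside an intron of Bop1, which is transcribed from the other strand. The nearest peak began 58005, 58198, 58293 and 59606 bp from its start site in E14 replicates 1 and 2 and E17 replicates 1 and 2. That peak ranked high in each list, at percentiles 98.3, 97.0, 95.0 and 91.3. Scx and Myog were thus alike in having no peak, although Myog had one nearby and Scx did not.

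**Figure D2:**
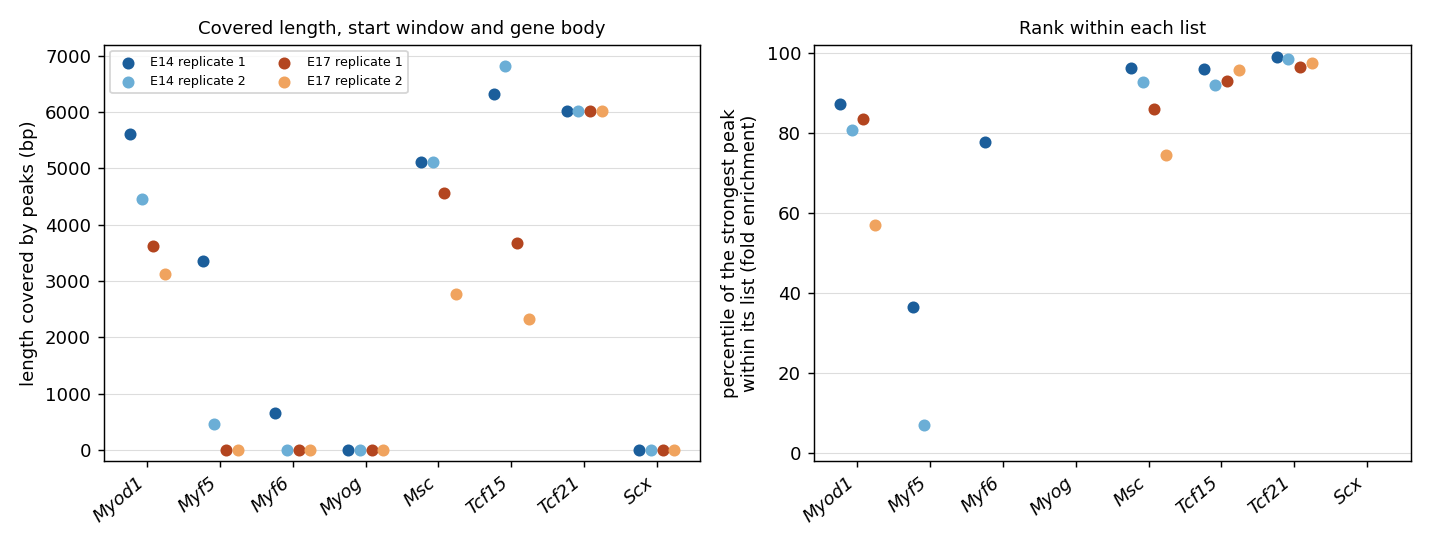
Length covered by peaks in the start window and gene body in bp (left) and percentile of the strongest peak by fold enrichment within its list (right), with 1 point per gene and library (blue, E14; orange, E17). On the left both E17 points lie below both E14 points for Myod1, Myf5, Msc and Tcf15, and on the right a point is missing where the gene had no peak.

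Set beside all protein-coding genes, 5 of the 8 had a peak at the start window in both E14 libraries, against a background of 19.5%, and 4 of 8 did so in both E17 libraries, against 12.2%. A peak in all 4 libraries was present at 4 of 8 genes and at 12.0% of protein-coding genes. A peak in both E14 and neither E17 library was present at 1 of 8 (Myf5) and at 4.62% of protein-coding genes. No peak in any library was found for 2 of 8 and for 74.1% of protein-coding genes. The 8 genes are few and were chosen with their values known, so these shares describe them and were not tested.

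The covered length was shorter in both E17 than in both E14 libraries at 4 of 8 genes (Myod1, Myf5, Msc and Tcf15), against 18.9% of all protein-coding genes. Among genes with a peak in all 4 libraries the background was 81.9%, and 3 of 4 of these genes were shorter, which is near that share. The median decrease in the start window was 30.8% over these 4 genes and 37.8% over the 2645 protein-coding genes with a peak in all 4. Summed over the 8 genes, 27092 and 22874 bp were covered in E14 replicates 1 and 2 and 17861 and 14234 bp in E17 replicates 1 and 2, of 52180 bp. The mean decrease of 35.8% was 30.4% in the lists read at 7107 peaks each. There the difference between the stage means changed only at Myf5, from 1911 to 0 bp, because the kept peaks have unchanged widths. The median percentile was 93.9 over the 5 genes with peaks in both E14 libraries and 87.3 over the 4 with peaks in both E17 libraries. Over the 4270 protein-coding genes with peaks in both E14 libraries the E14 median was 86.0. Over the 2645 with peaks in all 4 libraries the medians were 92.1 at E14 and 78.9 at E17. With a gene without a peak set to percentile 0, the medians over the 8 genes were 61.4 and 35.1.

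The surroundings of the genes differed in how much of the mark they held out to 50000 bp. Around Tcf21, 24090, 15494, 10769 and 7140 bp were covered upstream and 11583, 7624, 6213 and 5661 bp downstream of the window in E14 replicates 1 and 2 and E17 replicates 1 and 2. These lengths include the parts of the start-site peak of Tcf21 that ran beyond the window on both sides. Downstream, that peak made up all of the coverage apart from a separate peak of 1369 bp in E14 replicate 2. Upstream, the mark beyond that peak formed a second domain, which in E14 replicate 1 reached from −29123 to −7376 bp and held no annotated gene. Around Tcf15, 16198, 8181, 4979 and 2602 bp were covered upstream and 9792, 4078, 1357 and 297 bp downstream. Both sides followed the order of the list sizes. Part of the mark upstream of Tcf15 lay over the 3′ part of Scrt2, a zinc finger gene of neural cells, and a further peak, which ran from −29038 to −27102 bp in E17 replicate 1, overlapped no gene and was found in all 4 libraries.

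Myod1 stood between 2 other marked starts. A peak of 3456, 2295, 986 and 684 bp lay over the start of the noncoding gene 1700025L06Rik, from −28682 to −25227 bp in E14 replicate 1. On the other side, 6651, 6835, 5441 and 4931 bp of the start window of Kcnc1, a potassium channel gene, were covered in the same order. Msc and the Myf5 and Myf6 pair were more isolated. Within 50000 bp, Msc had a single further peak of 487 bp in E14 replicate 1. Around Myf5 and Myf6 nothing was found beyond the 3 peaks of E14 replicate 1 and the peak of E14 replicate 2.

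**Figure D3:**
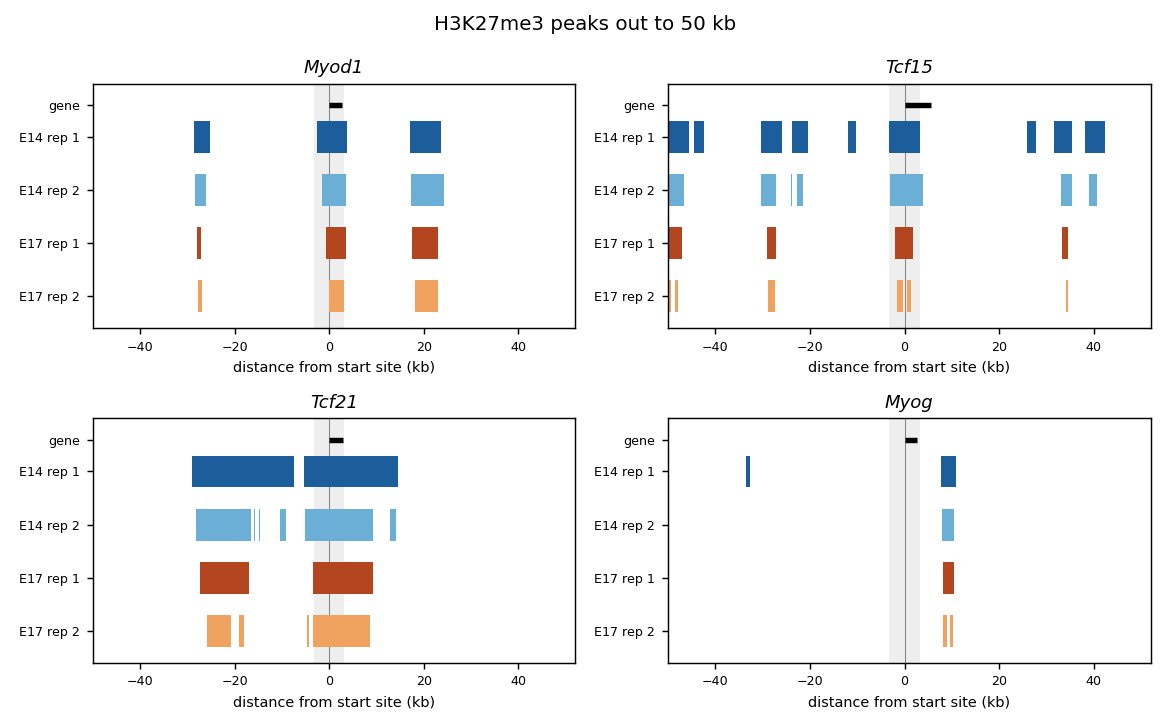
H3K27me3 peaks out to 50 kb around Myod1, Tcf15, Tcf21 and Myog, with the distance from the start site in kb on the horizontal axis and 1 row per library (blue, E14; orange, E17). Tcf15 has several further peaks, and Tcf21 has at least 1 on its upstream side in all 4 libraries. Myod1 has 1 on each side in all 4 libraries, and Myog has a peak on its 3′ side but none at its start.

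The nearest protein-coding neighbors were a mixed group, and some of them lay far from the gene. The gap was 443110 bp between Msc and Eya1 and 282788 bp between Tcf21 and Eya4, but 17397 bp between Myod1 and Kcnc1. A peak at the start window in all 4 libraries was present at Kcnc1 beside Myod1, Lin7a beside Myf5, Adora1 beside Myog and Eya1 beside Msc. Trpa1 beside Msc and Eya4 beside Tcf21 had one in 3 libraries, both lacking it in E17 replicate 2. None was found at Otog beside Myod1, Ptprq beside Myf6, Ppfia4 beside Myog, Srxn1 and Csnk2a1 beside Tcf15, Tbpl1 beside Tcf21, or Bop1, Mroh1 and Hsf1 around Scx. Tcf15 and Tcf21 were thus marked with at least 1 unmarked neighbor each, while Myog was unmarked with the marked Adora1 at a distance of 54557 bp.

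CpG content near the start was compared because Polycomb often gathers at CpG-rich promoters. The ratio of observed to expected CpG in the 1000 bp around the start was 0.481 at Myod1, 0.406 at Myf5, 0.380 at Myf6 and 0.344 at Myog. It was 0.628 at Msc, 1.06 at Tcf15, 0.469 at Tcf21 and 0.699 at Scx. The median was 0.553 over all protein-coding genes, 0.630 over those with a peak in all 4 libraries and 0.512 over those with none. Tcf15 stood at percentile 99.5 of all protein-coding genes, and the 4 myogenic factors all lay below the median. Scx had the second highest ratio without a peak, and Tcf21 was fully covered with a ratio below the median. Across the 8 genes, the ratio and the mean E14 coverage of the start window gave a Pearson r of 0.458 and a Spearman rho of 0.407, a description over 8 genes that share the same libraries.

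Within the genes marked throughout, the stretches covered in all 4 libraries were richer in CpG than those covered at E14 only. At Myod1 the ratio was 0.562 over the 3169 bp covered in all 4 libraries and 0.153 over the 992 bp covered in both E14 and neither E17 library. The same values were 0.541 and 0.286 at Msc, 0.458 and 0.150 at Tcf15, and 0.388 and 0.130 at Tcf21. The order was the same at all 4 genes. The E14-only stretches were 334 bp long at Msc, 2644 bp at Tcf15 and 1305 bp at Tcf21. The E14-only stretches lay at the outer edges of the peaks, so position and CpG content cannot be told apart here.

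The wider gene lists of the muscle pathway were read with the same rule. Of 20 regulators of the somite and of myogenic progenitors, 17 had a peak in all 4 libraries, beside 12.0% of protein-coding genes and 4 of the 8 genes, and the difference from the 8 genes was not tested. Tbx1, Pax1 and Pax9 were among those with long coverage, and in Pax9 it was 9963 bp in every library. Pax3 and Pax7, which stand upstream of Myod1 and Myf5 in the embryo and were picked for mention after their values were seen, were covered over their whole start windows of 6297 and 6522 bp in every library. Meox1 and En1 had peaks at E14 only, and Tbx6 had none. At Meox1, 2815 and 585 bp were covered at E14, and at En1 4403 and 2270 bp.

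Of 14 dimerization partners and inhibitors of these factors, 2 (Hey1 and Hey2, Notch effectors) had a peak in all 4 libraries and 9 had none in any library. These counts were near the 12.0% and 74.1% of all protein-coding genes. Those 9 include the E proteins Tcf3, Tcf4 and Tcf12 and the Id inhibitors Id1 to Id4. Of the 4 Mef2 genes, which act together with the myogenic factors, Mef2b had peaks at E14 only, with 3195 and 2310 bp covered. That pattern was found at 4.62% of protein-coding genes. The other 3 had no peak in any library, beside 74.1% of protein-coding genes, and with 4 genes in the list these shares were not tested.

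Of 40 genes of the muscle fiber and neuromuscular synapse, 6 had a peak in all 4 libraries, 2 at E14 only and 28 none in any library, near the 12.0%, 4.62% and 74.1% of protein-coding genes. The 6 were Ckm, Acta1, Des, Chrng, Ryr1 and Actn2, and the 2 were Chrnd and Actn3. At Ckm, the muscle creatine kinase, 3733 and 4122 bp were covered at E14 and 3388 and 2707 bp at E17. The myosin heavy chain and troponin genes on the list had no peak at their starts, other than Myh3 with 842 bp in E14 replicate 1. In its gene body Myh3 also had peaks in E14 replicate 2 and in E17 replicates 1 and 2, at percentiles 81.9, 61.2 and 68.4.

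Of 10 tendon genes, 6 had a peak in all 4 libraries and 4 had none, beside 12.0% and 74.1% of protein-coding genes, with Six2, Mkx, Eya2, Col14a1 and Thbs4 the longest. Mkx, a tendon homeobox gene, had 6153 and 5819 bp covered at E14 and 5810 and 5083 bp at E17, whereas Scx had 0 bp in all 4.

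Of 14 other bHLH genes of the mesoderm, 8 had a peak in all 4 libraries, 1 (Tal2) at E14 only and 3 none. The shares of protein-coding genes with these patterns were 12.0%, 4.62% and 74.1%. The longest were Tal1, Hand1, Tcf24, Hand2 and Ferd3l, and Tal1, of the blood lineage, was covered over 9083 bp in every library. Genes with several start sites can have longer windows, so this order also depends on the annotation. The 3 without a peak were Twist1, Twist2 and Lyl1, and Twist1 and Twist2 are bHLH genes of the dermal mesenchyme itself. Of 21 neurogenic bHLH genes, 18 had a peak in all 4 libraries, with Neurod6 and Atoh8 at E14 only, beside the same 12.0% and 4.62%. Neurog1, Neurog2, Neurod2, Olig1, Olig2 and Olig3 were covered over all 6001 bp in every library, as Tcf21 was over its own window and Myod1 was not. The median decrease in the start window among genes marked in all 4 libraries was 30.8% for the 4 of the 8 genes and 37.8% over all such protein-coding genes. It was 2.28% for the somite regulators, 8.98% for the neurogenic, 30.9% for the other mesodermal, 14.8% for the tendon and 60.3% for the muscle list. A window covered in full in every library, as at Neurog1 and Tcf21, gives a decrease of 0 whatever its peak does beyond it, so the low medians do not show that these peaks kept their width.

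**Figure D4:**
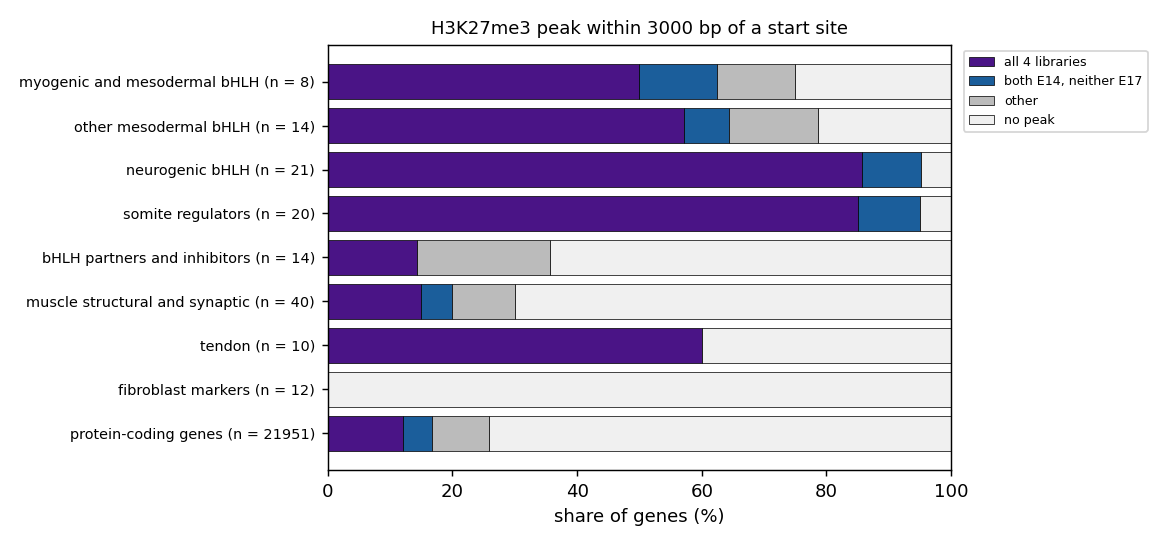
Share of genes in percent by the pattern of H3K27me3 peaks within 3000 bp of a start site, for the 8 genes, 7 other gene lists and all protein-coding genes. A peak in all 4 libraries was present at 4 of the 8 genes, 18 of 21 neurogenic bHLH genes, 17 of 20 somite regulators and 0 of 12 fibroblast markers, beside 12.0% of protein-coding genes, and differences between lists were not tested.

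The genes whose start window coverage was most like that of Tcf15 over the 4 libraries were Chrna4, Nova2 and Sema6b. Their summed absolute differences from Tcf15 were 482, 786 and 982 bp. At Chrna4, 6258 and 6026 bp were covered at E14 and 3618 and 2193 bp at E17, and at Tcf15 the same values were 6001, 5984, 3667 and 2327 bp.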

How the data were processed

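H3K27me3 ChIP-seq was analysed from 1 broad peak list for each of 4 libraries, 2 labelled E14 and 2 labelled E17. Per the submitters' processing notes, the tools were Bowtie2 2.3.5.1, SAMtools 1.9, MACS2 2.2.7.1 and deepTools 3.5.1, with build mm10. Per the methods, reads were aligned with bowtie2 and broad peaks were called by MACS2 at a q-value of 0.01, and a separate list was deposited for each library. The control for the peak call is not given in the sources used here. The methods describe subsampling of E18.5 wild-type and Kdm6b-knockout samples to a read depth equal to that of other samples. Whether this covers the libraries used here is not clear, so their depth was taken as unknown. Each peak in the deposited lists carries a fold enrichment, a ratio of pileup to local background averaged over the peak, and a −log10 p-value and −log10 q-value. These were used only to rank or filter peaks within a list. Read counts are not in the lists, so no precision of a single peak could be given.

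Positions were read on GRCm38, and the peaks of every chromosome ended within its length in that build. Genes were those of GENCODE vM21. Covered length was the number of bases under peaks in the start windows and gene body, with an overlap of at least 1 bp. The windows of several start sites were merged, which gave 7328 bp for Msc and 6001 bp for Myod1. Orders and matches by covered length therefore also depend on how many start sites are annotated. A percentile was the rank of the gene's strongest peak by fold enrichment among the peaks of its list. Stages were compared by an exact two-sided permutation test over libraries. CpG and E-box counts came from the reference genome and RefSeq promoters, which matched 3 of the 8 genes.

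The members and gene lists were chosen with earlier results of these data known. By rule, the text names all 8 genes, their nearest protein-coding neighbors, the genes of each list with peaks at E14 only and up to 5 with peaks in all 4 libraries and the longest coverage (tied genes are all named), and the 3 genes most like Tcf15. Other list genes were named after their values were seen. Some genes that the rule selects are not reported here. The calculations were tested on simulated data: with peaks planted at 2000 genes in 4 lists, 100% of presence calls and 100% of lengths were recovered. Each simulated gene had a single start site and no more than a single planted peak per list. Merged windows, split peaks and percentiles were therefore not tested in this way. Calculations used Python 3.11.15, numpy 2.4.6 and scipy 1.17.1. Alternatives were other windows, thresholds, widths, overlaps and ranks, equal list lengths and leaving out each library. The replicate numbers name libraries only, since no source says that equal numbers share a litter or batch.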

Additional observations from a re-analysis of the deposited data

How the results depend on the processing

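The percent decrease of the summed coverage, 35.8%, kept its direction under every alternative tried, between 30.1% and 45.4%, and between 28.5% and 43.0% with each library left out. With the replicate block, as the mean of the decreases within replicate numbers, it was 35.9%, and 4 genes were shorter at E17 within both numbers. The count of 1 gene with peaks at E14 only, Myf5, was 0 with −log10 q-values of at least 3 or 5, peaks of at least 1000 bp, an overlap of at least 500 bp, or equal numbers of top peaks. Each of these settings drops the Myf5 peak in E14 replicate 2. The q-value and equal-number settings also drop the Myf5 peaks in E14 replicate 1. The count was between 1 and 2 with a library left out, with Myf6 joining Myf5 without E14 replicate 2. Genes with peaks in both E17 libraries fell from 4 to 2 at a −log10 q-value of at least 5, since the Myod1 and Msc peaks of E17 replicate 2 are under it. The median percentile of 93.9 at E14 was 93.2 by −log10 p-value, and the cause was not tested. That of 87.3 at E17 was 83.5 for the peak with the longest overlap. At Tcf15 in E17 replicate 2 that choice takes the peak of 1348 bp at percentile 80.6 in place of the peak of 979 bp at 95.8. With genes without a peak at 0 the median percentiles at E14 and E17 were 61.4 and 35.1. Over all annotated genes in place of protein-coding genes, the background was 11.6% in both E14, 7.11% in both E17 and 2.91% in E14 only. Unknown depth limits every statement on an absent peak.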
